A study of Mus musculus with 30 samples.

Results

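Trgv1 is a variable segment of the T cell receptor gamma chain, and its transcript was followed here in sorted CD4+ T cells. It was read by probe set 102695_at, the only 1 of 12422 tested probe sets whose single gene symbol in the array annotation was Trgv1, and Trgv1 is 1 of 8251 genes that a probe set names alone. The gene was chosen because its signal was high in Treg (regulatory T) and CD25+ cells. The contrasts of Treg with Teff (effector T) cells and of CD25+ with CD25- cells are therefore given as a description, without a test.

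T cells carry a receptor of either alpha and beta chains or gamma and delta chains, each assembled by joining gene segments in the thymus. In the mouse, Trgv1 is joined to the Trgj4 segment and read out together with the constant segment Trgc4. Alpha beta T cells often carry gamma joins as well, but the gamma locus is usually held silent in them, whereas gamma delta T cells transcribe it. Opening of the gamma locus in T cell precursors depends on the interleukin-7 receptor and STAT5, a signalling route that the interleukin-2 receptor, which contains CD25, also uses. In the reference gene table (GRCm38.p6, used for neighbours only) Trgv1 lay on chromosome 13 between Trgv2 and Trgj4, with Trgj2 and Trgc2 beyond Trgv2 and Trgc4 beyond Trgj4. Trgv1 and its neighbour Trgv2 are close in sequence, so the probe set may read more than 1 gamma segment. Which gamma transcripts its probes match, and whether these were joined transcripts, was not tested.

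All mice were of the NOD strain and carried the BDC2.5 TCR transgene, a T cell receptor that gives most of their CD4+ T cells 1 alpha beta receptor against a pancreatic islet antigen. In pancreas set 2, mice labelled 26 days old had received anti-ICOS antibody, and 3 arrays were of their Treg cells, sorted as CD4+CD25+, and 3 of their Teff cells, sorted as CD4+CD25-. Another 2 arrays of that set were of CD4+CD25+CD69- Treg cells after IgG, 1 labelled 26 days and 1 labelled 4 weeks. In pancreas set 1, from mice that had received rat IgG and have no age in the labels, 3 arrays were of Treg cells with the same CD69- gate and 5 of Teff cells, sorted as CD4+CD25lo/-CD69+/-. The lymph node set held 5 CD4+CD25+ and 3 CD4+CD25- arrays of mesenteric nodes and 3 of each of peripheral nodes, all from mice of 4 weeks with no treatment in the labels. The gates of anti-ICOS and IgG cells thus differed, since CD69 was part of the gate of the IgG cells only. The labels do not say that replicates came from separate animals, so a p-value covers only the spread seen among these arrays, which may be technical. In sorted pools, fewer cells that hold the transcript and less of it per cell cannot be told apart.

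The median intensity of an array lay between 25.3 and 34.5. The title of mesenteric CD25+ replicate 2 disagrees with its source name, which says CD25-. Its signal of Il2ra, the gene of CD25, was 5.50 on the log2 scale, within the 5.34 to 6.24 of the mesenteric CD25+ arrays and above the 4.09 to 4.11 of the CD25- arrays. The array labelled anti-ICOS Treg replicate 3 went against its label, with Il2ra at 3.88, against 5.0 and 7.03 on the other anti-ICOS Treg arrays and 3.68 to 3.82 on the anti-ICOS Teff arrays. Trgv1 values of the anti-ICOS Treg group are given with and without it. Foxp3, the defining transcription factor of Treg cells, was not analysed here.

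Trgv1 was most abundant in CD25+ cells of the lymph nodes. The 5 mesenteric CD25+ arrays read 1008, 1025, 976, 989 and 1165 intensity units, against 44.0, 41.9 and 56.6 units on the 3 mesenteric CD25- arrays. The 3 peripheral CD25+ arrays read 616, 565 and 773 units, against 34.6, 45.7 and 41.5 units on the peripheral CD25- arrays. At both sites every CD25+ array lay far above every CD25- array, and the CD25+ arrays of 1 site lay close to each other.

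On the log2 scale, mesenteric nodes averaged 10.01 ± 0.10 in CD25+ cells (SD, n = 5) and 5.56 ± 0.23 in CD25- cells (SD, n = 3). The difference was 4.45 (SE 0.13), or 21.9-fold. Peripheral nodes averaged 9.33 ± 0.23 in CD25+ cells and 5.33 ± 0.20 in CD25- cells (SD, n = 3 each), a difference of 4.00 (SE 0.14), or 16.0-fold. At each site this was rank 1 of the differences of all 12422 probe sets, which is what the gene was chosen for. Across all probe sets 12.2% were called in the mesenteric contrast and 7.69% in the peripheral one, at a Benjamini-Hochberg adjusted p under 0.05 in limma. CD25+ lay wholly above CD25- for 12.1% of probe sets in mesenteric nodes and for 9.63% in peripheral nodes. Within each of the 2 runs of array numbers in the lymph node set, called D and E here, the mesenteric difference was 4.57 and 4.20 and the peripheral one 3.96 and 4.08.

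**Figure D1:**
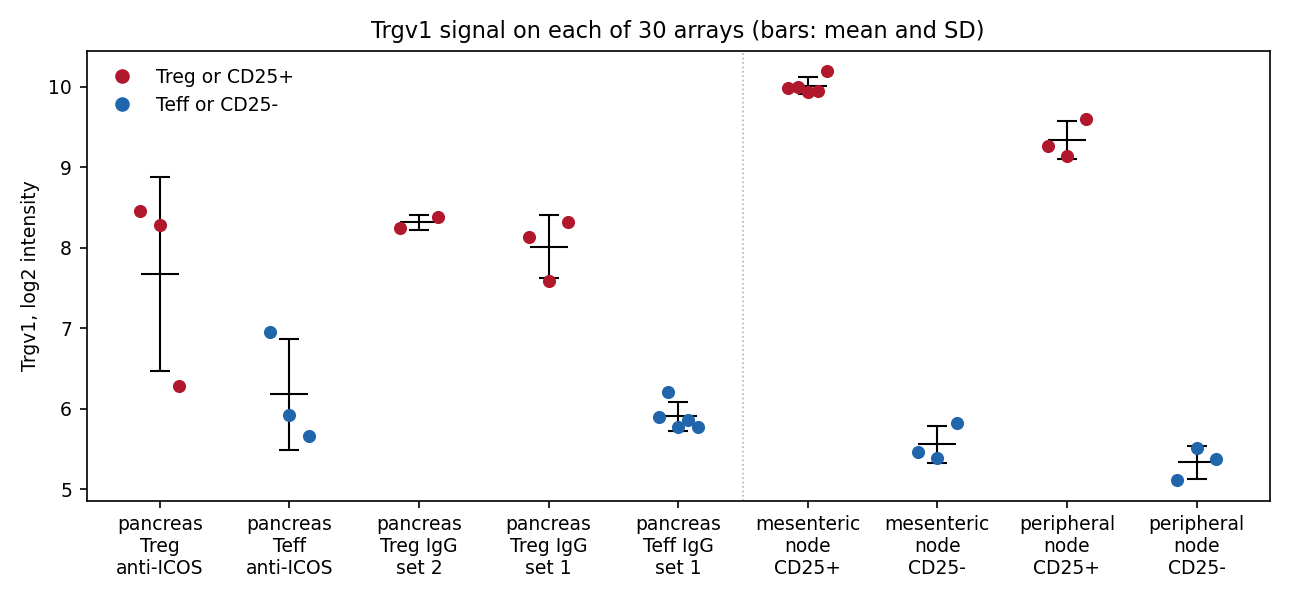
Trgv1 log2 intensity (vertical axis, as deposited) on each of the 30 arrays, by tissue, sort and treatment; points are arrays, bars the mean and SD of a group. Lymph node CD25+ arrays are highest, pancreatic Treg arrays lie lower, and 1 anti-ICOS Treg array lies at 6.28, among the Teff arrays.

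In the infiltrated pancreas Trgv1 was also higher in Treg cells, with a smaller distance. The IgG Treg arrays of set 1 read 281, 192 and 320 units, against 59.6, 74.0, 54.6, 58.0 and 54.8 units on the 5 IgG Teff arrays. No Treg array overlapped with a Teff array. On the log2 scale the IgG Treg cells averaged 8.01 ± 0.39 (SD, n = 3) and the IgG Teff cells 5.90 ± 0.18 (SD, n = 5). The difference was 2.11 (SE 0.17), or 4.32-fold, and rank 22 of 12422 from the top. Of all probe sets 6.69% were called in this contrast, and 8.53% had every Treg array above every Teff array. The 3 runs of array numbers in this set, A to C, gave 2.08, 1.81 and 2.5. The log2 ratio of 3' to 5' actin probe sets, a sign of how far RNA was shortened, averaged 3.75 on the Treg arrays and 2.65 on the Teff arrays. With that ratio as a covariate the Trgv1 difference was 2.59.

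The 2 IgG Treg arrays of set 2 read 304 and 333 units, near the upper values of set 1. The second of them came from an array whose number also appeared in set 1, and the 2 records had r = 0.997 across probe sets, so it was counted 1 time wherever both sets were joined.

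After anti-ICOS the 3 Treg arrays read 351, 311 and 77.7 units, against 124, 60.5 and 50.5 units on the 3 Teff arrays. The third Treg array lay below the first Teff array, so the groups overlapped. Same-numbered arrays differed by 1.5, 2.36 and 0.62 on the log2 scale, Treg minus Teff. Only those of replicate 1 shared a run of array numbers, so this pairing is uncertain. The means were 7.67 ± 1.21 in Treg cells and 6.18 ± 0.69 in Teff cells on the log2 scale (SD, n = 3 each), and the difference was 1.49 (SE 0.57), or 2.82-fold. The SE was 0.33 with the replicate number as a block. Without the array labelled Treg replicate 3 the difference was 2.19. It was 2.02 within run A and 2.62 within run B, run C held no anti-ICOS Teff array, and with run as a block it was 2.28 (SE 0.33). Of all probe sets 0% were called in this contrast by limma, with 209 at an unadjusted p under 0.05.

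The array labelled anti-ICOS Treg replicate 3 was low in other Treg genes as well as in Trgv1. Nrp1 (neuropilin-1, a surface receptor common on Treg cells) was 5.74 there, against 8.04 and 7.75 on the other anti-ICOS Treg arrays and 5.0 to 6.26 on the anti-ICOS Teff arrays. Socs2, a feedback inhibitor of cytokine signalling, was 6.07 there, against 8.63 and 9.72 on the other Treg arrays. The anti-ICOS Teff array with the highest Trgv1, replicate 1 at 124 units, also had the highest Nrp1 of its group, 6.26. Its Socs2, 6.31, and Itgae, 4.165, were the highest of the group too. Other Treg genes went the other way on that array, with the lowest Klrg1 of its group, 5.11, and the lowest Ctla4, 5.81. Its Il2ra of 3.82 was close to the 3.68 and 3.81 of the other Teff arrays. The part of these signals in the Trgv1 values was not tested.

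**Figure D2:**
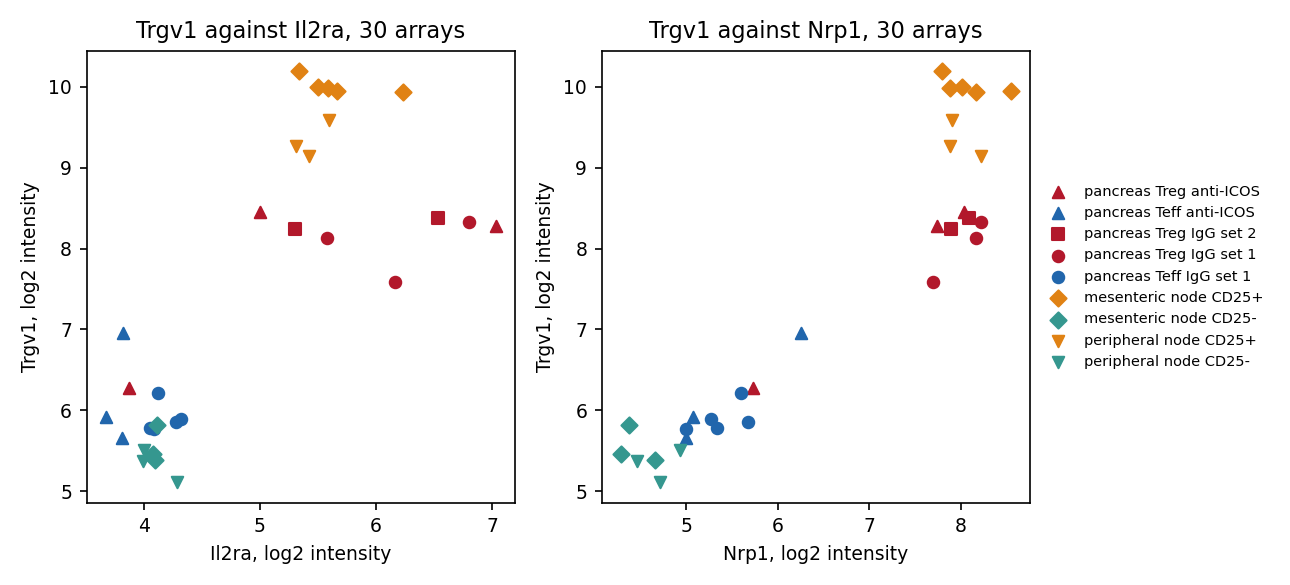
Trgv1 log2 intensity (vertical axes) against that of Il2ra and Nrp1 (horizontal axes) on the 30 arrays, with symbols for tissue, sort and treatment. The array labelled anti-ICOS Treg replicate 3 lies among the Teff arrays in both plots, and node CD25+ arrays lie above pancreatic Treg arrays at similar Nrp1.

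To set tissues side by side, all arrays were quantile-normalized together, which gave this order of mean log2 Trgv1 levels. Mesenteric CD25+ cells were highest at 10.16 (SD 0.09), then peripheral CD25+ cells at 9.53 (SD 0.14), then the IgG Treg cells of set 2 at 8.35 (SD 0.22). Each of these 3 groups lay wholly above the next, although 1 array stands in both IgG Treg groups and its 2 records differ. The IgG Treg cells of set 1 followed at 7.88 (SD 0.29) and the anti-ICOS Treg cells at 7.55 (SD 1.22). Without the array labelled anti-ICOS Treg replicate 3 that mean was 8.24 (n = 2), above the IgG Treg cells of set 1, so the place of the anti-ICOS Treg cells in the order turned on 1 array. The remaining 4 groups were the anti-ICOS Teff cells at 6.13, mesenteric CD25- cells at 5.74, IgG Teff cells at 5.70 and peripheral CD25- cells at 5.49. From the IgG Treg cells of set 1 downward, each group overlapped with the next in the order. The overlap of anti-ICOS Treg with anti-ICOS Teff cells also turned on the array labelled Treg replicate 3. Without it the lowest anti-ICOS Treg array was at 8.01, above the highest anti-ICOS Teff array at 6.915.

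Levels of the CD25- and Teff groups thus spanned 5.49 to 6.13, while those of the CD25+ and Treg groups spanned 7.55 to 10.16, or 7.88 to 10.16 without that array. In a joint fit of pancreas set 1 with the lymph node arrays, the Treg contrast of the pancreas was 2.17 and the CD25 contrast of the nodes, averaged over both sites, was 4.21. The pancreatic contrast minus that of the nodes was -2.03 (SE 0.16), the sixth most negative value of 12422 probe sets. It stayed between -2.13 and -1.86 when any 1 of the 22 arrays was left out. Trgv1 was chosen with the largest node contrast of all probe sets, so a low rank here follows in part from that choice. Tissue coincided with the set of records, the gate, the age labels and the treatment, so these cannot be told apart. Actin ratios were 3.75 on average in pancreatic IgG Treg cells, against 2.85 in mesenteric and 3.02 in peripheral CD25+ cells.

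**Figure D3:**
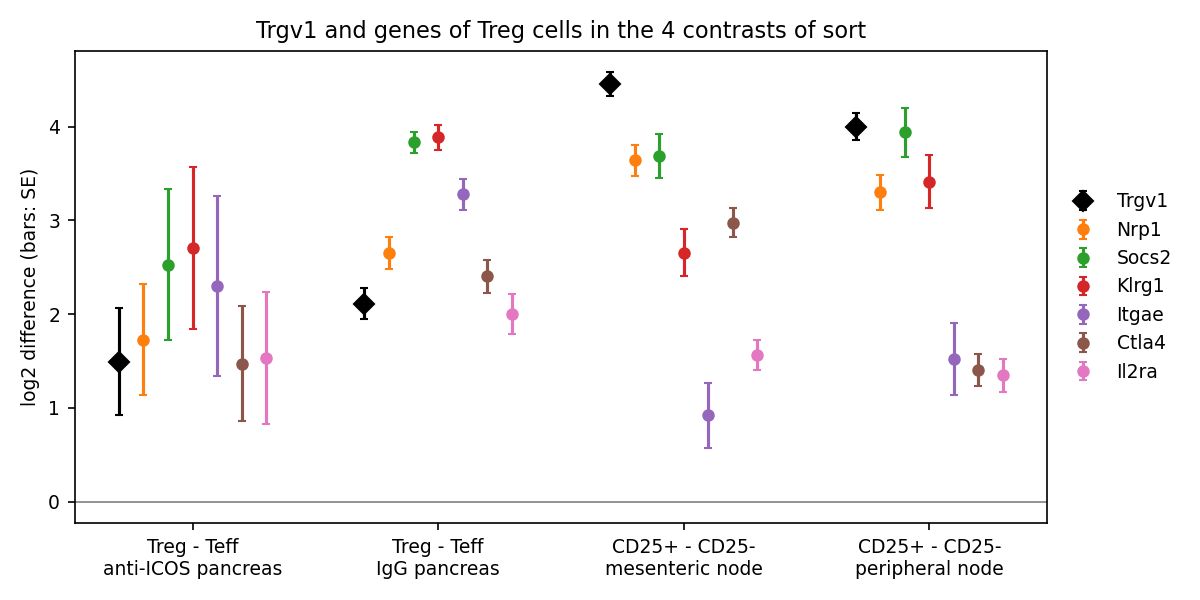
Log2 difference of Treg minus Teff or CD25+ minus CD25- cells (vertical axis, bars SE) for Trgv1 and 6 genes of Treg cells, in 4 contrasts. Trgv1 is the highest of these 7 in both node contrasts, at 4.45 and 4.00, and among the lower ones in the IgG pancreas, at 2.11.

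Other genes of Treg cells are given beside Trgv1. Klrg1, an inhibitory receptor of activated lymphocytes, rose by 3.89 (SE 0.13) in IgG Treg cells of the pancreas, and by 2.66 and 3.42 in CD25+ cells of mesenteric and peripheral nodes. Itgae, the integrin chain CD103, rose by 3.28 in IgG Treg cells and by 1.53 in peripheral CD25+ cells, and its mesenteric difference of 0.92 did not pass, whereas its other probe set, 161730_f_at, passed there with 0.67 (adjusted p = 0.0499 by limma). Nrp1 rose by 2.65 in IgG Treg cells, 3.64 in mesenteric CD25+ cells and 3.30 in peripheral CD25+ cells. Il2ra rose by 2.00 in IgG Treg cells, 1.57 in mesenteric and 1.35 in peripheral CD25+ cells. These are differences on the log2 scale, called at an adjusted p under 0.05 by limma over all probe sets, and their own gaps between tissues were not tested. Of 9 measured genes of Treg cells and the sort, 8 rose in the IgG pancreas, 7 in mesenteric and 8 in peripheral nodes, where 3.93%, 4.66% and 1.8% of all probe sets rose. The Gpr83 call in the IgG pancreas passed in 1 of 8 fits without 1 array, and those of Gpr83 and Itgae in peripheral nodes were lost with the actin ratio as a covariate (adjusted p = 0.0605 and 0.324 by limma). None of the 9 passed after anti-ICOS by limma. Without the array labelled Treg replicate 3, Klrg1 passed there with a difference of 3.91 (adjusted p = 0.00115 by limma), as did Tnfrsf4 with 2.49 and Tnfrsf18 with 1.47, which encode costimulatory receptors of the tumour necrosis factor family.

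The site of the node and the treatment lie across the contrasts the gene was chosen on, so these 4 comparisons were tested. In CD25+ cells Trgv1 was higher in mesenteric than in peripheral nodes by 0.67 on the log2 scale (SE 0.13, 95% confidence interval 0.40 to 0.95), or 1.60-fold. The lowest mesenteric array, at 976 units, lay above the highest peripheral array, at 773 units. The adjusted p over all probe sets was 0.0917 by limma (unadjusted p = 0.00014), so the difference did not pass the threshold. An exact two-sided permutation test over the 8 arrays gave p = 0.0179, the smallest that its 56 splits allow, and 0.0716 after Benjamini-Hochberg adjustment over the 4 tests. Of all probe sets 0.0725% were called in this contrast and 1.32% had every mesenteric array above every peripheral one. Within run D the difference was 0.79 and within run E it was 0.43. Without peripheral CD25+ replicate 3, the highest of that group, the difference was 0.80 and the adjusted p was 0.0301 by limma.

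In CD25- cells the mesenteric minus peripheral difference was 0.22 (SE 0.14, 95% confidence interval -0.09 to 0.53), and the 2 groups overlapped. It did not pass (adjusted p = 1.00 by limma; exact permutation p = 0.40, where 0.10 is the smallest possible), and 0.451% of all probe sets were called. It was 0.18 within run D and 0.31 within run E.

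No difference between anti-ICOS and IgG was detectable in Trgv1 of pancreatic Treg cells. The mean was 7.67 ± 1.21 after anti-ICOS (SD, n = 3) and 8.31 ± 0.10 after IgG (SD, n = 2), a difference of -0.64 (SE 0.64, 95% confidence interval -2.11 to 0.83). The adjusted p was 0.893 by limma, and an exact permutation test gave p = 0.90, where 0.10 is the smallest possible. Without the array labelled anti-ICOS Treg replicate 3 the difference was 0.05. The only run with both treatments, C, held 1 array of each, and the anti-ICOS one was that replicate 3, with a difference of -2.10. With the replicate number as a block the difference was -0.16 (adjusted p = 0.899 by limma). Same-numbered arrays of these groups came from different runs, so that pairing is uncertain. The interval spans both directions, so these 5 arrays limit what could be seen. No probe set was called in this contrast by limma (0%), with 425 at an unadjusted p under 0.05. The summed intensity of the erythroid markers Hba-a1 and Alas2, 2 of 4 on the list, was 98.9 to 2420 units on the anti-ICOS Treg arrays and 2920 to 10200 units on the IgG ones, and its part in the result was not tested.

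In pancreatic Teff cells the difference of anti-ICOS minus IgG was 0.44 (SE 0.41, 95% confidence interval -0.44 to 1.31), in a joint fit of both pancreatic sets on 15 arrays. The means on that scale were 6.27 ± 0.69 after anti-ICOS (SD, n = 3) and 5.83 ± 0.19 after IgG (SD, n = 5), and the groups overlapped. It did not pass (adjusted p = 0.999 by limma; exact permutation p = 0.179), 0% of probe sets were called and 512 had an unadjusted p under 0.05. Without anti-ICOS Teff replicate 1 the difference was 0.05. It was 0.54 in run A and 0.04 in run B. Treatment, gate and set of records coincide in this comparison and cannot be told apart.

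Of other receptor segments of the gamma locus, Trgv4 was the only one that a probe set named alone. Trgv4, the variable segment of a gamma chain common on lymph node and lung gamma delta T cells, was measured by 102745_at. The 5 mesenteric CD25+ arrays read 5.14, 5.19, 5.55, 6.06 and 5.83 on the log2 scale, against 2.99, 3.19 and 3.25 on the mesenteric CD25- arrays. The peripheral CD25+ arrays read 4.25, 4.68 and 5.76, against 3.64, 2.90 and 3.18 on the peripheral CD25- arrays. CD25+ arrays were above CD25- arrays at both sites, with more spread than for Trgv1.

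Trgv4 rose by 2.41 in mesenteric CD25+ cells (adjusted p = 0.000224 by limma) and by 1.66 in peripheral CD25+ cells (adjusted p = 0.0072 by limma). In IgG Treg cells of the pancreas it averaged 4.19 ± 0.17 (SD, n = 3), against 3.75 ± 0.15 in IgG Teff cells (SD, n = 5), a rise of 0.44 (adjusted p = 0.0487 by limma). On all of these pancreatic arrays, and on the node CD25- arrays, Trgv4 read below the median intensity of an array, so its signal there was dim. The pancreatic call passed in only 2 of 8 fits that left out an array, and with the actin ratio as a covariate the adjusted p was 0.431 by limma. The peripheral call also failed with that covariate (adjusted p = 0.175 by limma). After anti-ICOS its difference was 0.52, or 0.88 without the array labelled Treg replicate 3, and neither passed. Between sites Trgv4 differed by 0.66 in CD25+ cells, mesenteric minus peripheral, close to the 0.67 of Trgv1, and did not pass.

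A further probe set, 102744_at, is annotated with 2 gamma variable segments at once, Trgv4 and Trgv2, and so names no single gene. It was looked at after its values were seen. On the log2 scale its mesenteric CD25+ arrays read 7.01 to 7.38, against 4.12 to 4.13 on the CD25- arrays, and its peripheral ones read 6.05 to 7.12, against 3.72 to 3.81 on the CD25- arrays. The difference was 3.12 in mesenteric CD25+ cells, 2.70 in peripheral CD25+ cells and 1.35 in IgG Treg cells of the pancreas, given without a test because of that choice. Its anti-ICOS Treg arrays read 5.33, 6.29 and 4.64, the last on the array labelled replicate 3, against 5.02, 4.08 and 4.35 on the Teff arrays. It may read the same transcripts as the Trgv1 and Trgv4 probe sets, so it is no independent reading.

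None of the 6 measured alpha or beta chain segments passed in any of the 8 comparisons by limma, where 0% to 12.2% of all probe sets were called, so 0 of 6 is near the background. Trav12n-1, Trav6-2, Trbv13-2 and Trav19 were dim, with means of 3.33 to 3.63 on the log2 scale, below the median intensity of the arrays. A difference in them may therefore not show. Their median log2 difference was -0.08 in the IgG pancreas, 0.05 in mesenteric nodes and 0.15 in peripheral nodes, against 0.03, 0.04 and 0.05 over all probe sets. Trbv1 differed by 0.68 in mesenteric CD25+ cells (adjusted p = 0.0888 by limma), the highest of the 6 there. Of 7 genes of the CD3 complex and the coreceptors, Cd4 fell by 0.54 in peripheral CD25+ cells, where 5.89% of all probe sets fell, and no other passed in these 8 comparisons. Cd8a, a coreceptor subunit of cytotoxic T cells and of some gamma delta T cells, differed by -0.11 in mesenteric and -0.31 in peripheral CD25+ cells. Rag1 and Rag2, whose products cut the receptor loci, did not pass in any of them. Dntt, which adds bases at the joins, fell by 0.41 in mesenteric CD25+ cells and lost that call in 6 of 14 fits without 1 array.

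**Figure D4:**
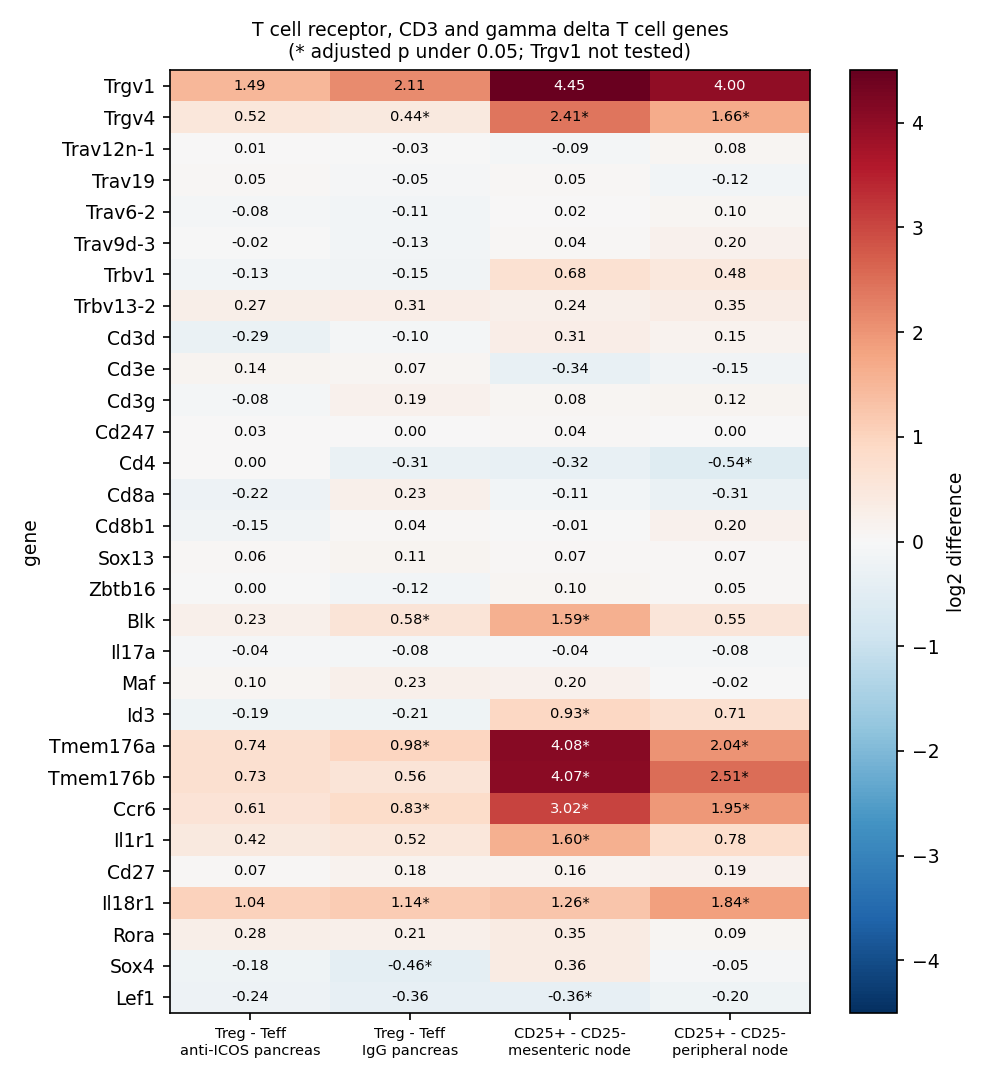
Log2 difference (colour and number) of Trgv1, other receptor segments, CD3 and coreceptor genes and genes of gamma delta T cells in 4 contrasts of Treg with Teff or CD25+ with CD25- cells; a star marks an adjusted p under 0.05 by limma, and Trgv1 was not tested. Differences of alpha, beta, CD3 and coreceptor rows run from -0.54 (Cd4, peripheral nodes) to 0.68 (Trbv1, mesenteric nodes), while Tmem176a, Tmem176b, Ccr6 and Trgv4 reach 4.08, 4.07, 3.02 and 2.41 in mesenteric nodes. Trav12n-1, Trav6-2, Trbv13-2 and Trav19 are dim on these arrays, so a difference in them may not show.

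Defining markers of gamma delta T cells were thin on this array. Of 11 markers on the list 2 had a probe set of their own, Trgv4 and Sox13, a transcription factor of gamma delta precursors. Their summed intensity was 161 to 190 units in mesenteric CD25+ cells against 131 to 142 in CD25- cells, and 164 to 170 in peripheral CD25+ cells against 127 to 149 in CD25- cells. In the IgG pancreas it was 167 to 213 units in Treg cells against 163 to 182 in Teff cells. Sox13 did not pass in any of the 8 comparisons by limma, and differed by 0.07 on the log2 scale in both node contrasts. The sum includes Trgv4, whose rise is given above, so it is no independent reading. The delta chain was not measured by a probe set of its own, so a share of gamma delta T cells in the sorts was not tested.

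Of 22 genes known from gamma delta T cells, 15 were measured. The list was drawn up with earlier results of these data known, so its counts are a description. In mesenteric CD25+ cells 7 rose and 1 fell, where 4.66% of all probe sets rose and 7.53% fell. Tmem176a and Tmem176b, a pair of intracellular membrane proteins, rose by 4.08 and 4.07. Ccr6, a chemokine receptor of mucosal lymphocytes that some Treg cells also carry, rose by 3.02. Il1r1, an interleukin-1 receptor chain, rose by 1.60, Blk, a kinase of B cells and of some gamma delta T cells, by 1.59, Il18r1, a receptor chain for interleukin-18, by 1.26, and the transcriptional inhibitor Id3 by 0.93. Lef1, a transcription factor of naive T cells, fell by 0.36 by its brightest probe set. Its other probe set went the other way, with 0.32, and did not pass (adjusted p = 0.294 by limma). In IgG Treg cells of the pancreas that other probe set fell by 0.72 (adjusted p = 0.0085 by limma). The brightest probe set of Lef1 differed there by -0.36 without passing (adjusted p = 0.0682 by limma). The Blk call was lost without mesenteric CD25- replicate 1 or 3.

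In peripheral CD25+ cells 4 of the 15 rose, against 1.8% of all probe sets, namely Tmem176b by 2.51, Tmem176a by 2.04, Ccr6 by 1.95 and Il18r1 by 1.84. In IgG Treg cells of the pancreas 4 rose, against 3.93% of all probe sets: Il18r1 by 1.14, Tmem176a by 0.98, Ccr6 by 0.83 and Blk by 0.58. Sox4, a transcription factor of developing lymphocytes, fell there by 0.46, where 2.76% of all probe sets fell. With the actin ratio as a covariate Il18r1 alone of these 5 pancreatic genes passed (adjusted p = 0.0242 by limma), with the others at 0.0521 to 0.313. In peripheral nodes Tmem176a alone of its 4 did not (adjusted p = 0.0533 by limma). None of the 15 passed after anti-ICOS. Il17a, a cytokine of a gamma delta subset, and the transcription factors Zbtb16 and Maf did not pass in any of the 8 comparisons. The list median was 0.36 in mesenteric nodes, 0.19 in peripheral nodes and 0.21 in the IgG pancreas, against 0.04, 0.05 and 0.03 over all probe sets.

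The SD of Trgv1 over the 5 mesenteric CD25+ arrays was 0.10 on the log2 scale, while Trgv4 had 0.40, Tmem176a 0.72, Tmem176b 0.70 and Ccr6 0.52. Replicate 4 had the highest Tmem176a, 9.58, the highest Ccr6, 10.56, and the highest Trgv4, 6.06, whereas its Trgv1 of 989 units was the second lowest of the 5. Replicate 5 had the highest Trgv1, 1165 units, with Tmem176a at 8.03 and Ccr6 at 9.47.

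Of 15 listed genes of the interleukin-7 and interleukin-2 receptor route and of gamma locus control, 13 were measured. In IgG Treg cells of the pancreas 4 rose and 1 fell, in mesenteric CD25+ cells 5 rose, and in peripheral CD25+ cells 4 rose and 1 fell. Over all probe sets 3.93% rose and 2.76% fell in the IgG pancreas, 4.66% rose in mesenteric nodes, and 1.8% rose and 5.89% fell in peripheral nodes. Socs2 rose by 3.83 in IgG Treg cells of the pancreas, 3.69 in mesenteric and 3.94 in peripheral CD25+ cells. Cish, another STAT5-induced inhibitor, rose by 1.44, 0.92 and 0.89 in the same order of tissues, and Gata3, a transcription factor of T cells, by 0.71, 0.48 and 0.62. Il7r, the interleukin-7 receptor chain, differed by -0.12, -0.46 and -0.37 and did not pass in any of the 3. Stat5b and the kinases Jak1 and Jak3 did not pass in any of the 8 comparisons by limma. Stat5a differed by 0.50 in mesenteric CD25+ cells by its brightest probe set (adjusted p = 0.066 by limma) and did not pass. Its other probe set passed there with 0.46 (adjusted p = 0.0187 by limma). In peripheral CD25+ cells these 2 probe sets differed by -0.01 and 0.02, and neither passed in any other comparison. Myb, a transcription factor of T cell precursors, fell by 1.81 in IgG Treg cells and by 1.64 in peripheral CD25+ cells, and differed by 0.09 in mesenteric ones without passing. The CD25- cells themselves differed by site, with Myb lower by 2.26 in mesenteric than in peripheral ones (adjusted p = 0.00195 by limma). In CD25+ cells that site difference was -0.53 and did not pass. The Gata3 call was lost in 9 of 14 fits without 1 array in mesenteric nodes and in 4 of 14 in peripheral nodes. With the actin ratio as a covariate Gata3 did not pass in any of the 3 contrasts (adjusted p = 0.275, 0.137 and 0.335 by limma), nor Myb in the IgG pancreas and in peripheral nodes (adjusted p = 0.202 and 0.119 by limma), nor Cish in peripheral nodes (adjusted p = 0.0599 by limma). None of the 13 passed after anti-ICOS, where Socs2 passed without the array labelled Treg replicate 3, with a difference of 3.56 (adjusted p = 0.0398 by limma).

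Genes were ranked by how closely they followed Trgv1 over 29 distinct arrays, after each set of records was centred on its mean. Nrp1 came first with a Pearson r of 0.968, then Ndrg1, a stress-response gene, with 0.955 by probe set 96596_at (0.902 by its brighter one, 160464_s_at), Itih5, a secreted matrix protein, with 0.95, and Prnp, the prion protein, with 0.94. Ccr6 had 0.938, Socs2 0.928, Trgv4 0.921 and Il18r1 0.915. The r of Nrp1 was 0.979 over the 14 node arrays and 0.991 over the 15 pancreatic arrays. Il2ra had 0.811. The 2 sorts form separate clusters on these arrays, so r is given as a description of likeness, with no p. Without the array labelled anti-ICOS Treg replicate 3 these 8 kept their order, with r of 0.917 to 0.968 over 28 arrays.

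The deviations of Trgv1 from its group means, over 28 arrays, followed most closely those of Itgae (probe set 161730_f_at, r = 0.897), then Entpd1, the ectonucleotidase CD39, with 0.865. Aurkb, a mitotic kinase, had 0.858, Cxcr3, a chemokine receptor of inflamed tissue, 0.854, and Prc1, a protein of the dividing cell's midzone, 0.853. These values depended on 1 array. Without the array labelled anti-ICOS Treg replicate 3 they were 0.732 for Itgae, 0.612 for Entpd1, 0.658 for Aurkb, 0.623 for Cxcr3 and 0.661 for Prc1 over 27 arrays, and Itgae was eighth among all single-gene probe sets.

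Markers of other cells were set beside the sorts. The summed intensity of 7 of 8 CD8 and NK cell markers was 114 to 125 units in mesenteric CD25+ cells against 123 to 125 in CD25- cells, and 107 to 132 in peripheral CD25+ cells against 137 to 184 in CD25- cells. In the IgG pancreas it was 202 to 267 units in Treg cells against 285 to 348 in Teff cells. The erythroid sum was 2310 to 2890 units in IgG Treg cells against 471 to 2230 in IgG Teff cells. In nodes it was 101 to 710 in mesenteric CD25+ cells against 220 to 410 in CD25- cells, and 145 to 3050 in peripheral CD25+ cells against 159 to 1300 in CD25- cells. The sum of 3 of 4 islet markers was 180 to 212 units in IgG Treg cells against 116 to 200 in IgG Teff cells. After anti-ICOS it was 97.0 to 143 units in Treg cells, against 156 to 199 in the IgG Treg cells of set 2. The sum of 4 of 5 B cell markers was 168 to 203 units in IgG Treg cells against 162 to 174 in IgG Teff cells. In nodes it was 188 to 234 in mesenteric CD25+ cells against 164 to 234 in CD25- cells, and 185 to 387 in peripheral CD25+ cells against 147 to 358 in CD25- cells. The sum of 5 macrophage and dendritic cell markers was 133 to 803 units in the IgG Treg cells of set 2, against 112 to 156 in anti-ICOS Treg cells. In set 1 it was 157 to 200 in IgG Treg cells against 150 to 186 in IgG Teff cells. The part of these signals in the Trgv1 values was not tested.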

How the data were processed

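RNA of sorted CD4+ T cells was hybridized to 30 one-colour Affymetrix MG-U74Av2 arrays. The authors deposited 1 linear intensity per probe set and array. Per the submitters' processing notes, RMA (no version) was used for pancreas set 2 and the lymph nodes. For pancreas set 1 the processing was not given in the sources used here. Per the labels' protocols, RNA was taken up in Trizol, with amplification before hybridization in set 1 and the nodes.

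From these values log2 was taken. Of 12488 probe sets 66 controls were left out, with no filter on dim ones. Fits used limma 3.58.1 in R 4.3.3 (lmFit, eBayes, two-sided) within each of the 3 sets of records as deposited. Adjusted p-values are Benjamini-Hochberg over 12422 probe sets, with a threshold of 0.05. Fits across sets were quantile-normalized together. The number of arrays limits the precision, and all intensities are relative, so no probe set was compared in level with another. The fits were tested on simulated data.

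Samples were grouped by their titles. The tissue entry of every peripheral array reads mesenteric and was not followed. The array numbers form 5 runs, A to E, taken as candidate batches. Controls of the node arrays were stored in another order (r = 0.254 with set 1 as stored, 0.952 after reordering by letter case) and were put back in order for the actin ratio.

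The gene, the gene lists and the tests were chosen with earlier results of these data known, so counts of called list genes are a description. Named genes were Trgv1, the members of 7 lists, the 8 single-gene probe sets most correlated with Trgv1 after set centring and the 5 most correlated after group centring. In the lists a gene was represented by its brightest probe set on average; the correlated ones were ranked by probe set. Same-numbered samples of pancreas set 2 deviated together (all 7 pairs over 0.1, r 0.237 to 0.621), so their numbers were taken as a candidate pairing. It is uncertain, since the IgG arrays mirror each other once centred and the pairs are not independent. Anti-ICOS Treg replicate 2 correlated more with Teff replicate 3, of its own run (r = 0.439), than with Teff replicate 2 (r = 0.283). In the nodes 8 of 18 pairs were over 0.1, so their numbers were not taken as pairs. Alternatives were the replicate block, run as a block, the actin ratio as a covariate, other normalizations, limma with trend and robust settings, a filter on dim probe sets, and leaving out each array; a joint fit of the pancreatic Treg arrays and the order and likeness without the array labelled anti-ICOS Treg replicate 3 were added after seeing the data. No sequence is printed, since none of Trgv1 was matched in the reference tables.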

Additional observations from a re-analysis of the deposited data

Results flagged for a closer look

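The groups with at least 4 arrays were 2 in number, and in both of them 1 array stood apart from the rest in Trgv1. Among the 5 mesenteric CD25+ arrays, replicate 5 was high at 1165 units, and its gap to the next array was 0.722 of the group's range. Among the 5 IgG Teff arrays of the pancreas, replicate 2 was high at 74.0 units, with a gap of 0.712 of the range. The critical value for 5 samples is 0.71, and chance passes it in about 1 of 20 groups. Mesenteric replicate 5 also had the highest Itgae of its group, 5.40 on the log2 scale, and the highest Entpd1, 3.82. Its Nrp1, 7.80, and Il2ra, 5.34, were the lowest of that group. IgG Teff replicate 2 had the highest Trgv4 of its group, 3.98, the highest Tmem176a, 4.89, and the highest Socs2, 5.60. Its Itgae, 3.85, was the lowest of the group. The part of these signals was not tested.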

How the results depend on the processing

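The mesenteric minus peripheral difference of Trgv1 in CD25+ cells stayed positive, at 0.61 to 0.68 with adjusted p of 0.0555 to 0.301 over 7 other settings and at 0.58 to 0.80 over 14 fits without 1 array, where it passed only without peripheral CD25+ replicate 3. Without 1 array the CD25- site difference was 0.09 to 0.31, and the 4 contrasts of sort were 4.37 to 4.58 (mesenteric), 3.87 to 4.10 (peripheral), 1.96 to 2.33 (IgG pancreas) and 1.10 to 2.19 (anti-ICOS pancreas). The pancreas minus node difference was -2.13 to -1.86, and -2.12 to -1.85 over 5 other settings. Anti-ICOS minus IgG was -1.03 to 0.05 in Treg cells, turning sign (0.0537) without the array labelled anti-ICOS Treg replicate 3 (joint fit of 15 arrays: -0.49), and 0.05 to 0.70 in Teff cells. With the actin ratio as a covariate the IgG pancreas contrast of Trgv1 was 2.59, and the probe sets called there numbered 86 instead of 831, those of the peripheral contrast 267 instead of 955, and those of the CD25+ site contrast 5 instead of 9. Run as a block gave 3 calls for anti-ICOS minus IgG in Treg cells and 15 for Treg minus Teff after anti-ICOS, each 0 without it. For anti-ICOS Teff cells calls numbered 1 with trend and robust settings, 4390 on values as deposited (median of all probe sets -0.26) and 1870 after median centring, against 0. The cause of these changes was not tested.

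With the replicate block, which only shares numbers in the nodes (6 of 12 arrays correlated best with their own number), the mesenteric contrast had 832 calls instead of 1514 and Trgv1 in CD25+ cells differed by 0.64 between sites; it changed no call of Trgv1. Of mesenteric calls 38.2% were higher in CD25+ cells, and 27.2% after median centring. Without 1 array the calls ranged from 743 to 1878 (mesenteric; 798 and 743 without CD25- replicates 1 and 2), 531 to 1462 (peripheral; 1462 and 531 without CD25+ replicates 1 and 2, 546 and 597 without CD25- replicates 2 and 3), 450 to 1000 (IgG pancreas; 471 without Treg replicate 2, 450 without Teff replicate 5), 2 to 21 (CD25+ site; 5, 2 and 21 without peripheral CD25+ replicates 1, 2 and 3), 36 to 68 (CD25- site; 36 without peripheral CD25- replicate 2), 0 to 35 (anti-ICOS minus IgG in Treg cells; 35 without IgG replicate 2), 0 to 12 (Treg minus Teff after anti-ICOS; 12 without Treg replicate 3) and 0 to 1 (anti-ICOS minus IgG in Teff cells). A small number of arrays and 1 probe set per gene limit these results.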
